A study of Drosophila melanogaster with 4 samples.

Results

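The regions described here are the stretches of the left arm of Drosophila melanogaster chromosome 3, arm 3L, that were enriched for ubiquitinated histone H2B in larvae. They were taken by position alone: enriched regions on 3L whose midpoint lies at or before base 22543557, which leaves out the 2 Mb next to the centromere. Coordinates throughout are those of FlyBase release 5. The combined list of the study held 1022 such regions of its 5627 enriched regions, replicate 1 held 954 of 5135, and replicate 2 held 937 of 5150. On the whole arm, 28 further regions of the combined list lay beyond the limit, as did 28 of replicate 1 and 22 of replicate 2. Nothing lay close to it. The last region inside ended at 22401488 with a score of 1.68, and the first outside began at 22707380 with a score of 0.815.

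Chromatin came from wild-type Oregon-R larvae of the third instar, fixed with formaldehyde and sonicated. The 2 immunoprecipitated samples (replicates 1 and 2) were obtained with NRO3, a mouse monoclonal antibody raised to the site where ubiquitin joins human H2B, and were set beside 2 input samples of unselected chromatin. All samples share strain, genotype and stage, so there is no treated or mutant group. The region lists do not hold read counts, and depth is unknown. The inputs were not analysed here as samples of their own. Separate collections of larvae are not stated for the replicates, and their spread, and any p-value resting on it, may be technical. The labels name no tissue, larvae hold many cell types, and a region marked strongly in few cells cannot be told apart from one marked weakly in many.

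H2B carrying a single ubiquitin is known as a mark of transcribed genes. The ubiquitin is attached by the E3 ligase Bre1 together with a Rad6-type conjugating enzyme, in step with the elongating RNA polymerase and the Paf1 complex. It is taken off again by the deubiquitinating module of the SAGA complex, which contains the protease Non-stop and the small subunit Sgf11. In the RefSeq gene table on release 6, the genes Bre1, not (which encodes Non-stop) and Sgf11 themselves lie on arm 3L. Regions are on release 5 and positions were not converted, so no region is assigned to these or other genes, and no sequence is shown.

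The mark lay over about 26.5% of the arm in each replicate. Enriched regions covered 25.9% of the 22.5 Mb in replicate 1 and 27.2% in replicate 2, a mean of 26.5% ± 0.867 (SD, n = 2). That is 5.85 Mb in replicate 1 and 6.12 Mb in replicate 2. The combined list covered 30.7%, or 6.92 Mb, more than either replicate. There were 42.3 regions per Mb in replicate 1, 41.6 in replicate 2 and 45.3 in the combined list.

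Widths ranged from 1.00 to 114 kb in the combined list, and a small set of wide regions carried much of the marked sequence. The median width was 3.49 kb in replicate 1, 3.61 kb in replicate 2 and 3.82 kb in the combined list, and the widest regions reached 106 kb in either replicate and 114 kb in the combined list. In the combined list the 144 widest regions, 14.1% of all regions, held 50% of the summed widths, and each of them was at least 11.5 kb wide. The corresponding number was 145 regions in replicate 1 and 135 in replicate 2. Regions of 10 kb or more held 48.7% of the summed widths in replicate 1, 51.1% in replicate 2 and 55.0% in the combined list. Of these, regions of 20 kb or more, broad domains, numbered 42, 51 and 62 and held 26.1%, 30.2% and 32.0%. At the other end, 212 regions of replicate 1 and 183 of replicate 2 were narrower than 2 kb, and they held 5.94% and 4.87% of the bases.

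Each region carries 1 score as the authors gave it, whose unit is not stated in the sources used here. It is used to rank and describe regions within a list. The median score was 0.773 in replicate 1 and 0.773 in replicate 2, and the middle 50% of regions lay between 0.595 and 1.06 in replicate 1 and between 0.572 and 1.12 in replicate 2. The highest score was 2.44 in replicate 1 and 2.56 in replicate 2. Wide regions scored higher. In the combined list, regions under 2 kb had a median score of 0.347, those of 2 to 10 kb 0.656, those of 10 to 20 kb 1.13 and those of 20 kb or more 1.25. The replicates gave the same order of classes, from 0.508 to 1.33 in replicate 1 and from 0.470 to 1.39 in replicate 2. Width and score had a Spearman's rho of 0.833 across the 1022 regions. Neighbouring regions are not independent, and whether the scoring itself ties score to width was not tested.

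Most of the marked sequence was found in both replicates. Bases marked in both amounted to 5.53 Mb of the 6.44 Mb marked in either (85.8%). Bases marked in replicate 1 alone came to 0.318 Mb, and those in replicate 2 alone to 0.595 Mb. Counted as regions, 888 of the 954 regions of replicate 1 (93.1%) shared 1 bp or more with replicate 2, against 93.2% over the whole genome list. In the other direction, 836 of 937 (89.2%) overlapped, against 88.2% over the whole genome list. Arm 3L thus stood close to the whole genome in both directions.

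Width separated shared from unshared regions. Every region of 10 kb or more, 137 in replicate 1 and 141 in replicate 2, overlapped a region of the other replicate. Among regions under 2 kb the overlapped share was 71.7% of 212 in replicate 1 and 62.8% of 183 in replicate 2, and among those of 2 to 10 kb it was 99.0% and 94.6%. The larger a region, the easier the 1 bp rule is to meet. The 66 unpartnered regions of replicate 1 measured 1.54 kb at the median and scored 0.702 at most. The 101 of replicate 2 measured 1.69 kb at the median and reached 7.14 kb and a score of 0.817. Many lay near a region of the other replicate, since the median distance was 1.94 kb for replicate 1 and 2.47 kb for replicate 2. Of the 66, 3 were 10 kb or more away, and of the 101, 22 were. Nearly all were kept in the combined list, which overlapped 66 of the 66 and 99 of the 101.

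Scores of matched regions ran alongside each other. Mutual best matches between the replicates formed 792 pairs, with a Spearman's rho of 0.932 and a Pearson's r of 0.954 between replicates. The median absolute difference in score was 0.0857. Replicate 2 scored higher in 444 of the 792 pairs (56.1%). By width class, the excess was largest in the wide regions. Wide regions also scored higher, and whether the excess follows width or score was not tested. The median difference, replicate 2 minus replicate 1, was 0.0817 in the 42 pairs of 20 kb or more and 0.0784 in the 89 pairs of 10 to 20 kb, but 0.00569 in the 539 pairs of 2 to 10 kb and 0.00129 in the 122 pairs under 2 kb. Among the 50 highest-scoring regions of each replicate, 43 were matched to each other.

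**Figure D1:**
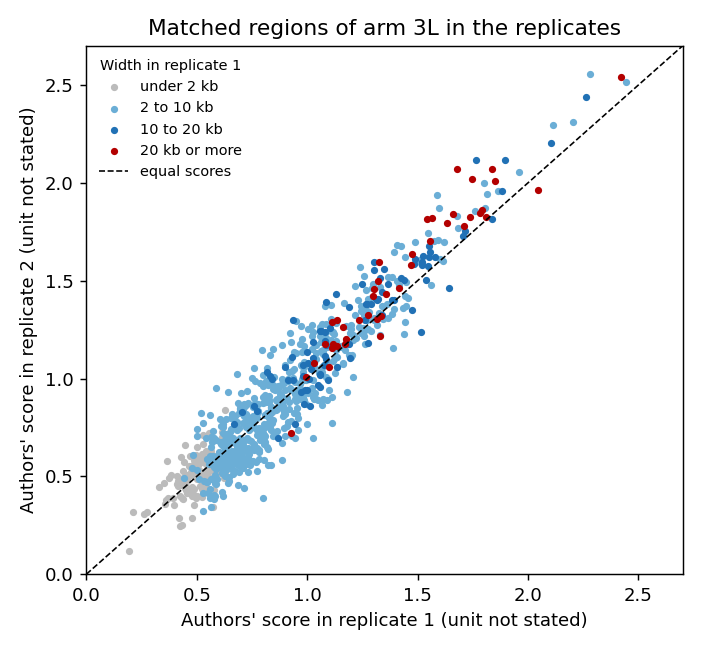
Authors' score of 792 matched regions of arm 3L in replicate 1 (horizontal axis) and replicate 2 (vertical axis), coloured by width in replicate 1, with a dashed line for equal scores. Points run along the line (Spearman's rho 0.932), and regions of 10 kb or more lie more often above it, by a median of 0.0784 in the 10 to 20 kb class and 0.0817 in the class of 20 kb or more.

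Taken singly, most region edges shifted little, with 465 starts (58.7%) and 473 ends (59.7%) within 200 bp, but fewer pairs kept both edges. The start moved by a median of 159 bp between replicates and the end by 152.5 bp. Both edges were within 200 bp in 295 of 792 pairs (37.2%). Larger shifts, over 1 kb, affected 115 starts and 111 ends.

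The combined list held 727 regions (71.1%) that overlapped both replicates, against 70.0% over the whole genome list. These held 92.4% of the summed widths on the arm, had a median width of 5.33 kb and a median score of 0.788. All 176 combined regions of 10 kb or more were among them. A further 55 regions overlapped replicate 1 alone and 77 overlapped replicate 2 alone, with median widths of 1.68 and 2.04 kb. The remaining 163 (15.9%) overlapped neither replicate. These were narrow, with a median of 1.285 kb and a maximum of 2.60 kb, and 84 of them were narrower than the narrowest region of either replicate on the arm, which measured 1302 bp. They held 3.22% of the summed widths. How the combined list was made is not given in the sources used here.

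**Figure D2:**
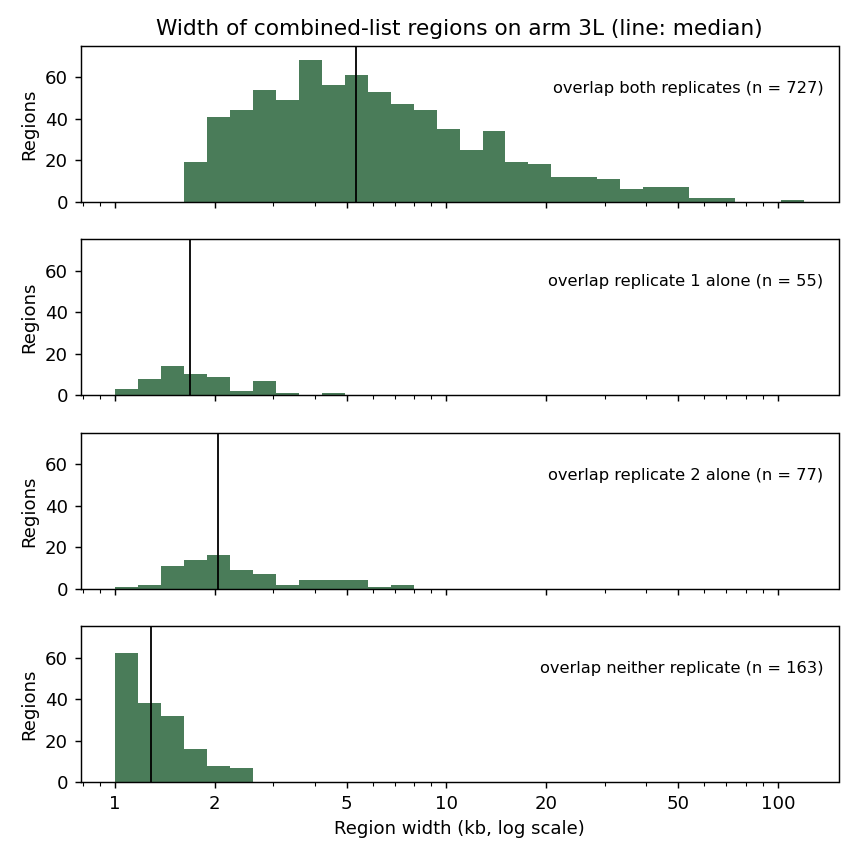
Histograms of the width of the 1022 combined-list regions of arm 3L (horizontal axis, kb, log scale), in separate panels for regions that overlap both replicates (727), replicate 1 alone (55), replicate 2 alone (77) and neither (163). The vertical line marks the median, which is 5.33 kb for regions in both and 1.285 kb for regions in neither.

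Where all lists agreed on a single region, the combined one was a little wider and scored a little lower. There were 543 such sets of 1 region per list. Their median width was 4.255 kb in the combined list, 3.79 kb in replicate 1 and 3.75 kb in replicate 2, and the combined region was wider than both in 494 of 543. The combined score was lower than both replicate scores in 306 of 543, with a median difference from the replicate mean of -0.0548. Levels of the score are therefore not compared between the combined list and a replicate.

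The highest-scoring regions were solid in every list. The top region lay at 3L:16132500-16158110, 25.6 kb wide, and scored 2.42 in replicate 1 and 2.54 in replicate 2, or 2.48 ± 0.0860 (SD, n = 2). The second, at 3L:15228148-15237684, was less than 10 kb wide and scored 2.44 and 2.51. The third, at 3L:3400478-3418292, scored 2.26 in replicate 1 and 2.44 in replicate 2. These were followed by 3L:8426194-8436250, with 2.21 and 2.31, and by 3L:17544918-17551412, with 2.12 in replicate 1 and 2.30 in replicate 2. That last region was the narrowest of the top 10, at 6.50 kb.

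The other 5 of the top 10 by score were between 14.6 and 29.4 kb wide. The region at 3L:305652-320294 scored 2.10 in replicate 1 and 2.20 in replicate 2, and the one at 3L:1778420-1797970 scored 1.89 and 2.12. The widest of the 10, at 3L:19135072-19164476 (29.4 kb), scored 1.84 in replicate 1 and 2.07 in replicate 2. The region at 3L:10850498-10868530 differed most, with 1.76 in replicate 1 and 2.12 in replicate 2. The one at 3L:8442462-8465396 was the exception in direction, with 2.05 in replicate 1 and 1.96 in replicate 2. None of the 10 was divided in either replicate, and the replicates covered at least 97.2% (replicate 1) and 94.4% (replicate 2) of each.

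Their surroundings differed. The second region stood alone, with its nearest neighbour in the combined list 71.5 kb away, and it bordered the fourth-longest gap inside the limit. The third was 24.8 kb and the eighth 30.1 kb from a neighbour. The fourth and the tenth are near each other, in the same cluster of regions, and had neighbours at 0.653 and 0.245 kb.

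**Figure D3:**
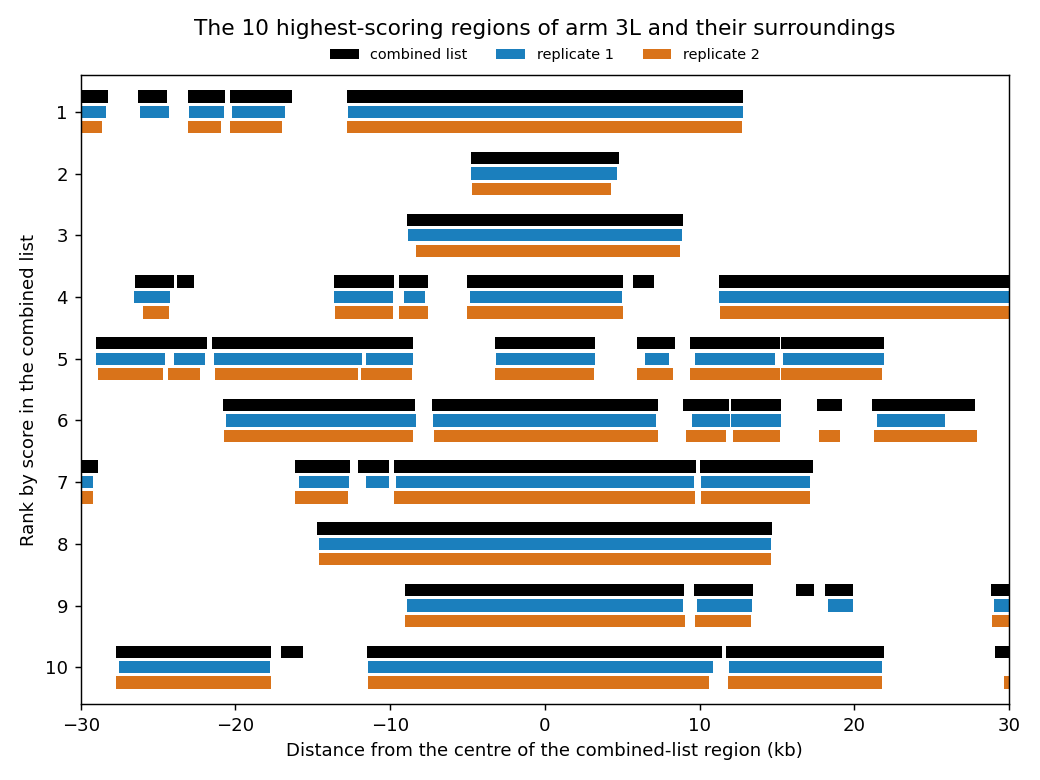
Map of the 10 highest-scoring regions of arm 3L, from rank 1 at the top to rank 10 at the bottom, with every region within 30 kb of the centre (horizontal axis, kb); black bars are the combined list, blue bars replicate 1 and orange bars replicate 2. The central region is a single bar in all lists for each of the 10, and rank 2, whose nearest neighbour is 71.5 kb away, is the most isolated.

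The widest regions were a separate set from the highest-scoring, with no region in both top 10 lists. The widest, at 3L:22287804-22401488 (114 kb, score 1.68), is also the last region before the limit. Both replicates split it at the same place: replicate 1 into 6.88 and 106 kb, and replicate 2 into 6.79 and 106 kb, with the break between 22294804 and 22295057 in replicate 1 and between 22294684 and 22295008 in replicate 2. The larger piece scored 1.63 in replicate 1 and 1.80 in replicate 2. The region at 3L:506262-576624 (70.4 kb) scored highest of the 10 widest, with 1.85 in replicate 1 and 2.01 in replicate 2, and was unbroken in both.

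Further broad regions lay along the whole arm. Those at 3L:21027184-21093064 (65.9 kb), 3L:12206668-12258906 (52.2 kb), 3L:3543338-3594314 (51.0 kb) and 3L:13221406-13272252 (50.8 kb) were single regions in both replicates. Those at 3L:8820084-8883132 (63.0 kb), 3L:5187554-5241510 (54.0 kb) and 3L:17945546-17995060 (49.5 kb) were divided in replicate 1, and the last also in replicate 2. The one at 3L:10508924-10568968 (60.0 kb) was divided in replicate 2. In combined scores the 10 ran from 1.14 to 1.92, and replicate 2 scored higher than replicate 1 in 10 of 10. The region at 3L:13221406-13272252 stood apart from the others, 107 kb from its nearest neighbour.

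Some regions of the combined list were broken up in the replicates. Of the 727 combined regions seen in both replicates, 547 (75.2%) were 1 piece in each, 139 were divided in replicate 1 and 111 in replicate 2, with 70 divided in both. The most divided, at 3L:18621318-18655910 (34.6 kb, score 0.734), was 9 pieces in replicate 1 and 3 in replicate 2. The 9 pieces measured between 1.36 and 6.11 kb and scored between 0.485 and 0.800, while the largest piece in replicate 2 was 24.4 kb and scored 0.906. The 5 most divided regions scored 0.623 to 0.806 in the combined list, and replicate 1 covered as little as 57.9% of one of them, at 3L:21382896-21407296, where replicate 2 covered 79.9%.

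The 5 largest score differences between replicates, among 709 combined regions with a matched pair, were all higher in replicate 2. That direction did not hold over all 792 matched pairs. There the largest difference was higher in replicate 1, with 0.800 against 0.390 in replicate 2. The largest of the 5 was at 3L:18997362-19039012 (41.7 kb), with 1.68 in replicate 1, where it was 2 pieces, and 2.07 in replicate 2. At 3L:7238248-7256938 the scores were 0.935 and 1.30, and at 3L:21496150-21505806 they were 0.589 and 0.953. At 3L:9041514-9047080 (5.57 kb) replicate 1 covered 44.5% of the region with a score of 0.797, and replicate 2 covered 94.0%, its main piece scoring 1.15. The fifth was the region from 10850498 given above. In 3 of the 5, replicate 1 had 2 pieces and replicate 2 had 1, so the scores compared belong to stretches of unequal extent.

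Along the arm, coverage rose and fell several times, and the replicates followed the same course. In the 22 whole 1 Mb windows of the combined list it ranged from 18.2% to 46.7%, with a median of 29.3%. The range was 14.0% to 41.1% in replicate 1 and 15.4% to 40.4% in replicate 2. The most covered window was 3 to 4 Mb, with 41.1% in replicate 1 and 40.4% in replicate 2 (40.8% ± 0.527, SD, n = 2). It was followed by 8 to 9 Mb, with 38.1% and 38.7%, and by 16 to 17 Mb, with 35.1% and 36.3%. The least covered were 18 to 19 Mb, with 14.0% and 15.5%, and 11 to 12 Mb, with 14.2% and 15.4%. The window from 13 to 14 Mb, with 18.4% in each replicate, was the third lowest by the combined list and by the replicate mean, while in replicate 1 the window from 10 to 11 Mb was lower, at 17.9%.

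Neighbouring windows could differ by far more than the replicates did. The mean change from a window to the next was 9.03 percentage points in replicate 1 and 9.01 in replicate 2, whereas the replicates differed by 2.66 points at most. Coverage was higher in replicate 2 in 20 of 22 windows, and the mean difference was 1.11 points ± 0.900 (SD over windows). The 13 to 14 Mb window was sparse but strongly marked, with 24 regions and a median combined score of 0.828, the highest of the 22 windows. The 18 to 19 Mb window had 35 regions with a median score of 0.446, and 11 to 12 Mb had 47 regions with a median score of 0.457. Across the 22 windows of the combined list, Spearman's rho of coverage was 0.874 with the number of regions of 10 kb or more and 0.782 with the number of all regions. Windows share an arm and both counts feed coverage, so these are descriptions.

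The 4 windows nearest the telomere were on average more covered than the rest, a grouping made after the values were seen. They averaged 33.6% in replicate 1 and 34.3% in replicate 2, against 24.0% and 25.2% over the other 18. Single windows did not separate in this way. By replicate mean, 8 to 9 Mb (38.4%) and 16 to 17 Mb (35.7%) exceeded 0 to 1 Mb (34.8%), 1 to 2 Mb (29.5%) and 2 to 3 Mb (30.6%). The first region of the arm began at 129034. It was 15.6 kb wide, undivided in replicate 2 (score 1.41), and split in replicate 1 into 2.60 kb (score 0.603) and 12.8 kb (score 1.31). At a finer scale of 250 kb, 90 windows ran from 0% to 62.0% in the combined list. The window from 16.75 to 17 Mb was highest there, with 50.2% in replicate 1 and 55.6% in replicate 2, and the window from 18.25 to 18.5 Mb held no marked base in any list.

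**Figure D4:**
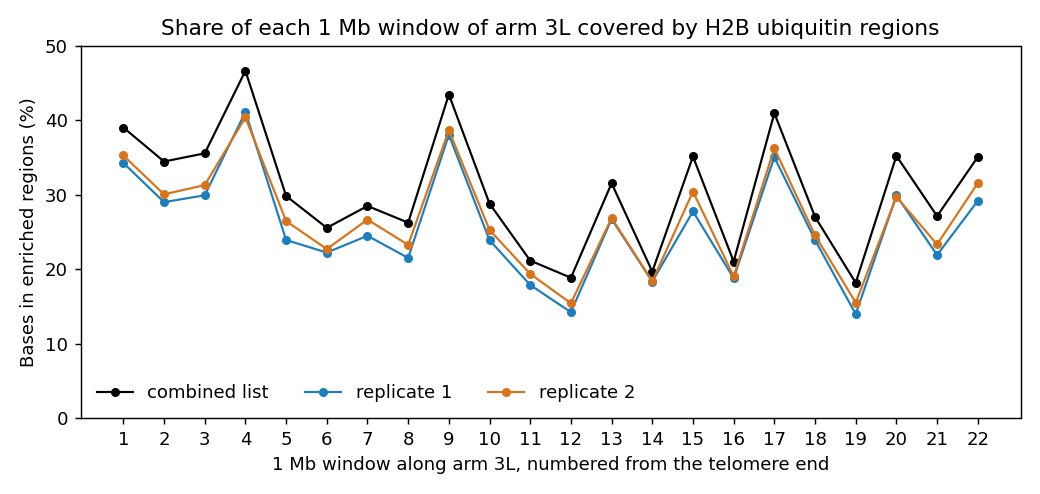
Share of bases in enriched regions (vertical axis, %) in 22 windows of 1 Mb, numbered from the telomere end of arm 3L, for the combined list (black), replicate 1 (blue) and replicate 2 (orange). The replicate lines stay within 2.66 percentage points of each other, peak in window 4 (41.1% and 40.4%) and are lowest in window 19 for replicate 1 (14.0%) and window 12 for replicate 2 (15.4%).

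Regions were clustered. Of the 1022 combined regions, 560 (54.8%) had a neighbour less than 1 kb away and 290 a nearest neighbour at 1 to 5 kb. The most isolated regions were not the lowest in score. The 50 regions with no neighbour within 20 kb had a median width of 4.30 kb and a median score of 0.766, against 3.92 kb and 0.584 for those with a neighbour under 1 kb, and 38 of the 50 (76.0%) overlapped both replicates. When regions under 5 kb apart were joined into chains, the arm held 404 chains by the combined list, and 411 and 421 by replicates 1 and 2. Chains of at least 50 kb numbered 40, 27 and 30, and they held 39.8%, 30.4% and 32.0% of the summed widths.

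The longest chain was the same stretch in every list. It ran from 434012 to 576624 in the combined list (143 kb, 6 regions, 97.6% covered), and over 141 kb in replicate 1 (6 regions, 94.4%) and 142 kb in replicate 2 (7 regions, 96.4%), and it ended in the 70.4 kb region described above. The chain with the most regions differed between lists. In the combined list it was 3L:7316464-7378900, with 11 regions over 62.4 kb and 76.7% covered. Replicate 1 held 9 regions there and covered 59.7%, and replicate 2 held 10 and covered 65.1%.

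Long stretches without a region separated these clusters. Gaps of 100 kb or more between neighbouring regions numbered 35 in replicate 1, 32 in replicate 2 and 29 in the combined list, and took up 26.8%, 24.3% and 21.9% of the span. Gaps of 50 kb or more took up 43.5%, 41.6% and 38.4%. No region of either replicate lay wholly inside any of the 29 combined gaps, although the edge of a replicate region reached into some of them. The longest inside the limit was 433 kb, from 18178831 to 18612323, where replicate 1 was empty over 434 kb and replicate 2 over 443 kb. It was followed by 391 kb from 13509515 to 13900253, 298 kb from 4828971 to 5127077, 254 kb from 15237685 to 15491905 and 246 kb from 9967529 to 10213713. The replicate gaps around the last 4 of these were between 246 and 391 kb, each within 1 kb of the combined gap. The empty stretch of the combined list from 22401488 to 22707380 crosses the limit. It was not ranked, although it is longer than the 298 kb gap.

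The regions beside the long gaps differed in score, and how steeply the mark falls at their edges was not measured. The 254 kb gap was flanked on its left by the second-highest score of the arm, 2.45 in the combined list, and on its right by a region of 1.72 kb that scored 0.241. The 391 kb gap lay between regions of 1.07 and 1.56, whereas the 298 kb gap lay between regions of 0.584 and 0.565. Whether reads can be placed uniquely within these gaps was not tested.

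The single region that the authors' files call depleted lies on this arm, at 3L:17467738-17469300. It is 1.56 kb wide and its combined score was -0.00675. Replicate 1 had no enriched region there. Replicate 2 had one, at 3L:17467676-17469262, which shares 1525 bp with it and had a score of 0.136, higher than 0.107% of the replicate's regions on 3L. The same place was thus listed as enriched, with a low score, in 1 replicate and as depleted in the combined list. The nearest enriched combined regions were 7.18 kb to the left (score 0.441) and 11.2 kb to the right (score 1.41).

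Arm 3L was set beside 2L, 3R and X with the same 2 Mb left out at each centromere, and 2R was not compared here. Long gaps took up less of 3L than of each of the other arms in both replicates. Only stretches between neighbouring regions count as gaps, so empty stretches at the ends of each span are left out. The comparison of gaps was not repeated with whole arms. Gaps of 100 kb or more took up 26.8% of the span of 3L and 37.9% of 2L in replicate 1, and 24.3% of 3L and 37.0% of 2L in replicate 2. Against 3R the values were 26.8% for 3L and 34.3% for 3R in replicate 1, and 24.3% for 3L and 33.5% for 3R in replicate 2. Against X they were 26.8% for 3L and 29.8% for X in replicate 1, and 24.3% for 3L and 28.8% for X in replicate 2. The mean difference was -11.9 percentage points ± 1.07 from 2L, -8.34 ± 1.12 from 3R and -3.79 ± 1.03 from X (SD, n = 2), lower on 3L in 2 of 2 replicates each time. The two-sided exact sign-flip test over replicates gave p = 0.5 for each, the smallest that 2 replicates allow, and 0.583 after Benjamini-Hochberg adjustment over 21 comparisons of arms. No difference between arms could therefore pass a threshold, whatever its size.

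Coverage on 3L was above that of 2L by 3.25 percentage points ± 0.210 and above that of 3R by 1.37 ± 0.221, and below that of X by a small margin, at -0.407 ± 0.150 (SD, n = 2; exact sign-flip p = 0.5 each). The direction against 3R depended on the limit: with the whole arms it turned to -0.558. Against X it turned to 0.133 when the top 50% of scores were kept (exact sign-flip p = 1). That cut was taken on each arm by itself, and the median score was higher on X, so unlike score levels were kept. There were 41.9 regions per Mb ± 0.533 on 3L and 47.1 ± 1.11 on X (SD, n = 2). Regions of 10 kb or more held more of the marked sequence on 3L than on X. Their share was 49.9% ± 1.68 on 3L and 44.2% ± 3.64 on X (SD, n = 2), a difference of 5.63 points ± 1.96. Against 2L and 3R it was higher in 1 replicate and lower in the other.

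Scores on 3L were not set apart as a whole. The median was 0.773 ± 0.000231 on 3L, 0.745 ± 0.00227 on 2L, 0.759 ± 0.0198 on 3R and 0.834 ± 0.00590 on X (SD, n = 2). Among the 100 highest scores of the whole genome list, 3L held 23 by the combined list, and 23 and 21 by replicates 1 and 2, where 3L holds 18.2%, 18.6% and 18.2% of all regions. Among the 500 highest, 3L held 92, 91 and 91 (18.4%, 18.2% and 18.2%), close to its share of regions. Overlap between replicates, as the share of bases marked in either, was 85.8% on 3L, 85.6% on 2L, 86.6% on 3R and 83.8% on X.

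**Figure D5:**
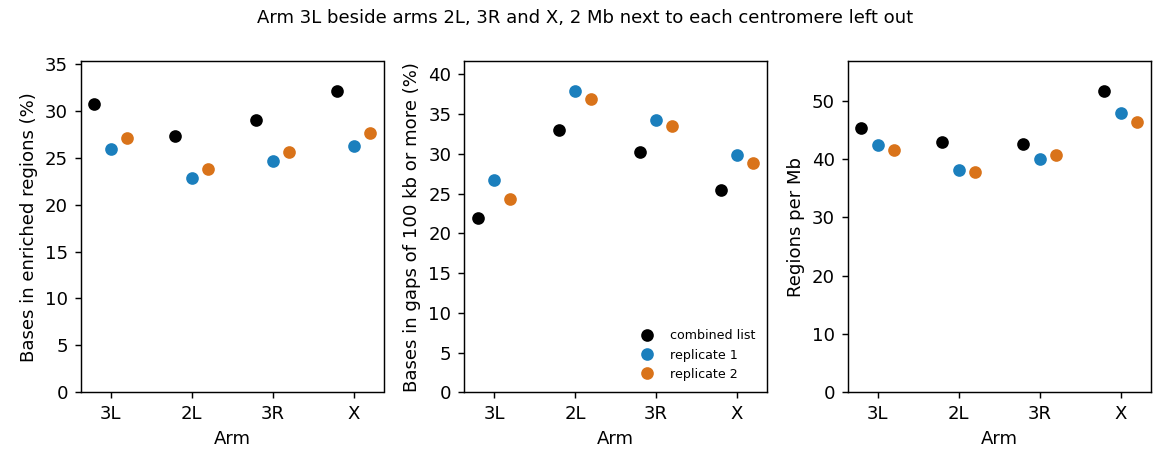
Share of bases in enriched regions (left), share of bases in gaps of 100 kb or more (middle) and regions per Mb (right) on arms 3L, 2L, 3R and X, with points for the combined list (black), replicate 1 (blue) and replicate 2 (orange). In long gaps 3L is lowest in all lists (26.8% and 24.3% in the replicates), while its coverage lies above 2L and 3R and below X.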

How the data were processed

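Region lists from H2B ubiquitin chromatin immunoprecipitation in Oregon-R larvae were used: 1 for each of 2 replicates and 1 combined list. The submitters' processing notes name Bowtie 0.12.7, with no role given, and per the file headers the build is FlyBase release 5. Each region has a score deposited by the authors. Not given in the sources used here: its unit, the region caller and thresholds, the use of the inputs, and the making of the combined list. Depth is unknown.

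Widths, coverage, overlaps (at least 1 bp), gaps and chains (regions under 5 kb apart) were computed with Python 3.11.15, numpy 2.4.6 and scipy 1.17.1, and plotted with matplotlib 3.10.9. Counts leave out the depleted region. Samples were grouped by title. Overlaps and correlations are descriptions without a p. Differences between arms were tested over the 2 replicates with an exact two-sided sign-flip test, which cannot go below 0.5. The measures were tested on simulated data with 1000 regions of known overlap, and 6 of 6 measures were recovered.

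The arm, the members and the lists were chosen with earlier results of these data known. Regions named are those seen in both replicates with the 10 highest scores, the 10 largest widths, the 5 highest counts of pieces and the 5 largest score differences, with the 5 longest gaps, the 3 most and 3 least covered windows, the first and last region, the fullest chain and, among regions in neither replicate, the 3 highest scores and 3 largest widths. The depleted region, the longest chain and the finer windows were added after their values were seen. Genes and sequences on release 5 were not used here.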

Additional observations from a re-analysis of the deposited data

How the results depend on the processing

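Keeping the top 50% of scores left 511 regions by construction, with 25.1% coverage, a median width of 7.225 kb, 66.4% of bases in regions of 10 kb or more and 46 gaps of 100 kb or more. Under that setting each list was cut to its own top 50%. The Jaccard index between the cut replicates was 83.5%, rho of matched scores 0.887 and the share of combined regions in both replicates 77.7%. A replicate region below the cut of its own list does not count as a partner there. Against the uncut replicates, combined regions overlapping replicate 1 alone scored 0.491 at most, and those overlapping replicate 2 alone 0.600 at most. Coverage of 3L minus X reversed to 0.133 points with the top 50% of scores, cut on each arm by itself and so at unlike scores. Coverage of 3L minus 3R reversed to -0.558 points with whole arms, which hold the 2 Mb next to the centromere. The cause of either reversal was not tested. Whole-arm coverage of 3L was 28.7%, with 36 long gaps. Merging regions under 500 bp apart left 797 regions, with a median width of 4.79 kb and 66.6% of bases in regions of 10 kb or more. Requiring 50% of both regions to overlap gave 77.3% of replicate 1, 78.7% of replicate 2 and 61.1% of combined regions, with rho at 0.939. In 250 kb windows the range of coverage was 62.0 points, against 28.5 in 1 Mb windows. With a replicate left out, the other alone gave 25.9% to 27.2% coverage, a median width of 3.49 to 3.61 kb, 48.7% to 51.1% in regions of 10 kb or more, 937 to 954 regions, 32 to 35 long gaps and a window range of 24.95 to 27.2 points. Coverage of 3L then differed by 3.10 to 3.40 points from 2L, 1.21 to 1.53 from 3R and -0.513 to -0.301 from X. The combined list, an alternative added after seeing the data, gave 3.38, 1.69 and -1.37 points. The replicate numbers are shared between ChIP and input samples. Between those groups no paired analysis was possible because the files used hold regions of the ChIP samples alone. Differences between arms were taken within each replicate. Unknown depth limits every list.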

Other observations

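Most regions that the combined list added on 3L scored low, with a median of 0.357 over the 163 that overlap neither replicate, but 1 did not. The region at 3L:3605586-3606768, 1.18 kb wide, had a score of 1.13, above 81.9% of the combined regions on the arm. The next highest of the 163 scored 0.515, at 3L:19479954-19480968, and the third 0.479, at 3L:14466102-14468204. Around the first, replicate 1 was empty for 5.11 kb to the left and 21.1 kb to the right, and replicate 2 for 6.14 and 21.9 kb. The widest of the 163, at 3L:12527688-12530288, 3L:19220916-19223432 and 3L:373548-376058, measured 2.60, 2.52 and 2.51 kb and scored 0.368, 0.320 and 0.329.

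All 1022 combined regions on the arm start at an even base, which the replicate regions do not, and 2 pairs of neighbouring combined regions overlap or touch each other, whereas none do in the replicates.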
